A study of Mus musculus with 8 samples.

Results

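Subcutaneous AT (SAT) of chow-fed mice is represented in this RNAseq series by 2 of its 8 libraries, 1 labelled EC-*Tert*-KO (KO) and 1 labelled WT, and they are compared here across all genes. KO mice carried Tie2e-cre, TERTfl/fl and mTmG, and WT mice carried Tie2e-cre, TERT+/+ and mTmG, so that both genotypes had the Cre driver and the reporter. The mice were female and 8 months old. Cells were sorted by FACS for membrane GFP (mG+), which the mTmG reporter makes in place of membrane Tomato once Cre has acted in a cell or in an ancestor of it. Cre was driven by the Tie2e promoter, used by the study as specific for endothelial cells (EC). Cre under Tie2 control is also known to act in part of the blood lineage. Whether a library held cells of 1 mouse or of several is not stated. The other 6 libraries, 1 per genotype from SAT on high fat diet (HFD), from visceral AT (VAT) on chow and from gastrocnemius muscle on chow, serve as references. With 1 library per genotype there is no replicate check, and each difference within a pair describes those 2 libraries only.

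Of 54532 genes in the count table, 16908 had a mean of at least 10 counts over the 2 SAT chow libraries. For each of them the log2 ratio of KO to WT was computed from TMM-scaled libraries, 0.5 counts being added to each. A gene was called higher or lower in KO where the exact 95% counting interval of its ratio lay wholly beyond 2-fold. This interval covers counting error alone. Levels are in CPM, the count divided by the TMM-scaled library total and multiplied by 1000000, which are comparable between libraries for the same gene but not between genes of different length.

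TERT is the catalytic subunit of telomerase, the enzyme that adds telomere repeats to chromosome ends. A messenger RNA is transcribed with its introns, spliced and exported to the cytoplasm, where ribosomes use it. Some long noncoding RNAs, among them *Malat1*, *Neat1* and *Xist*, stay in the nucleus, as do unspliced precursors and excised introns. A library from whole cells can therefore hold different proportions of nuclear and cytoplasmic RNA, and short and long transcripts can be recovered to different degrees. Subcutaneous fat also holds several kinds of cells, each with its own markers.

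*Tert* (ENSMUSG00000021611, chromosome 13) was counted 70 times in WT and 11 times in KO, a log2 ratio of −2.61 (95% counting interval −3.73 to −1.74). Its level fell by 2.47 on the log2 scale relative to protein-coding genes of its own length, 5730 bases. Of the remaining pairs, SAT on HFD gave 114 *Tert* counts for WT against 0 for KO, and muscle 24 against 7. In VAT the order was opposite to the labels, since the library labelled KO had 9 and that labelled WT 3. The test of whether this effect differed from that in the other 3 pairs gave a difference of −0.42 (adjusted p = 0.964, edgeR's quasi-likelihood test). The depth was 18855772 counts for WT and 16095464 for KO, and 19802 and 24688 genes were detected with at least 1 count.

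Over all genes tested, the median log2 ratio was 0.00, with an interquartile range from −0.80 to 1.06. In KO, 3231 genes (19.1%) were called higher and 1941 (11.5%) lower. With library totals in place of TMM, which raises each log2 ratio by 0.23, these numbers were 3907 and 1133, and with upper quartile scaling 3765 and 1265. After removal of the length trend of protein-coding genes they were 3362 and 756. In VAT 2.4% of genes were called higher and 2.09% lower, in muscle 2.76% and 2.01%, and in SAT on HFD 12.9% and 10.9%. The 2 directions held different kinds of genes. Of the 13715 protein-coding nuclear genes, 14.5% were called higher and 11.9% lower, with a median of −0.08. Of the 3193 remaining genes, which are mostly noncoding, 39.1% were called higher and 9.58% lower, with a median of 0.98.

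Gene length went with the direction of the difference. The protein-coding genes were split by length into 10 groups of equal size. In the shortest group, 114 to 1731 bases long, the median log2 ratio was −1.004, 35.7% of genes were called lower and 7.73% higher. In the longest group, from 9832 bases up, it was 0.97, with 0.511% called lower and 39.97% higher. The medians increased at every step between, through −0.66, −0.58, −0.42, −0.16, −0.07, 0.06, 0.22 and 0.49. The longest group thus lay 1.97 above the shortest on the log2 scale, against 0.17 in SAT on HFD, −0.37 in VAT and 0.01 in muscle. In VAT the shortest group was the higher one. Across genes, the Spearman correlation of the log2 ratio with length was 0.425 over 13698 protein-coding genes, and in the other pairs it was 0.035, −0.222 and 0.024 in the same order. Genes share their 2 libraries and are not independent replicates. When all biotypes entered, the shortest group held many small noncoding genes, its median was −0.35 with an interquartile range from −1.39 to 1.95, and the longest group lay 1.22 above it.

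**Figure D1:**
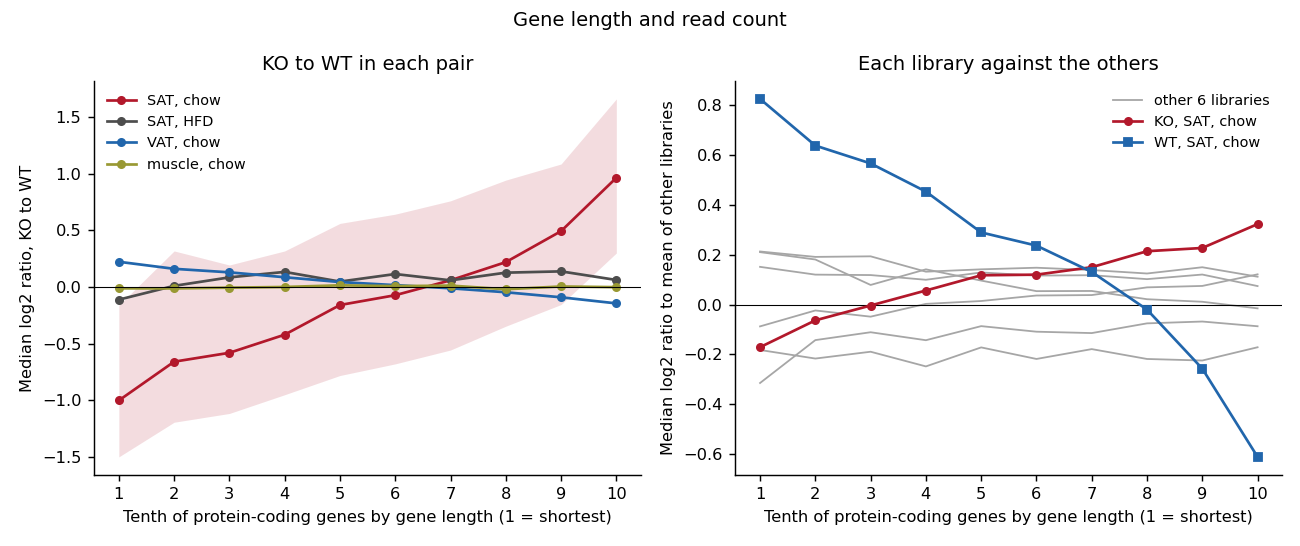
Left, median log2 ratio of KO to WT (y axis) in 10 length groups of protein-coding genes from the shortest to the longest (x axis), for each of the 4 pairs, with the interquartile range of SAT on chow shaded. Right, median log2 ratio of each library to the mean of the other libraries, both SAT chow libraries left out of that mean, in the same kind of groups over 11288 genes. The SAT chow pair runs from −1.004 to 0.97, and of its 2 libraries the WT library departs further from the other 6.

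The trend was present at every expression level. Within 4 equal groups of protein-coding genes by mean count, from the lowest to the highest, the longest genes lay 1.91, 2.06, 1.83 and 2.23 above the shortest. Both the coding part and the 3′ UTR of a transcript went with it. With 5 equal groups by each length, genes in the shortest group for both had a median of −1.12, and genes in the longest group for both 1.15. Within the shortest coding sequences the median ran from −1.12 to −0.18 between the shortest and the longest 3′ UTRs, and within the shortest 3′ UTRs from −1.12 to 0.36 between the shortest and the longest coding sequences. The Spearman correlation across genes was 0.379 for coding length, 0.266 for 3′ UTR length, 0.347 for intron length, 0.229 for the number of exons and −0.089 for GC content. These properties are themselves related to each other. Genes with no ATTTA pentamer in the 3′ UTR, a letter sequence found in many unstable mRNAs, had a median of −0.42, and genes with 6 or more had 0.57. Against genes of like total length these medians were −0.25 and 0.19.

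Set beside the other 6 libraries, the WT library stood apart on most of these measures. In WT, 50% of the counts fell on genes no longer than 3432 bases, against 5119 in KO and 4118 to 4809 in the others. Genes over 6000 bases took 24.5% of its counts, against 41.2% in KO and 33.0% to 38.3% in the others, and genes under 1500 bases took 13.6%, against 7.40% and 8.01% to 9.93%. Relative to the mean of the other libraries, the longest of the 10 groups of genes lay at −1.44 from the shortest on the log2 scale in WT and at 0.49 in KO, whereas the other 6 libraries lay between −0.23 and 0.23. Both libraries of the pair were thus outside that range, on opposite sides, the WT library by more. Of the genes called higher in KO, the WT level was below all other 6 libraries for 55.6% and the KO level above all of them for 29.4%. Of those called lower, the WT level was above all of the other 6 for 78.6%, and the KO level below all of them for 11.5%. Over all genes tested, the WT level was below the other 6 for 15.5% of genes and above them for 29.7%, and the KO level for 3.16% and 18.2%. The part of this make-up of the WT library in the differences given here was not tested.

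**Figure D2:**
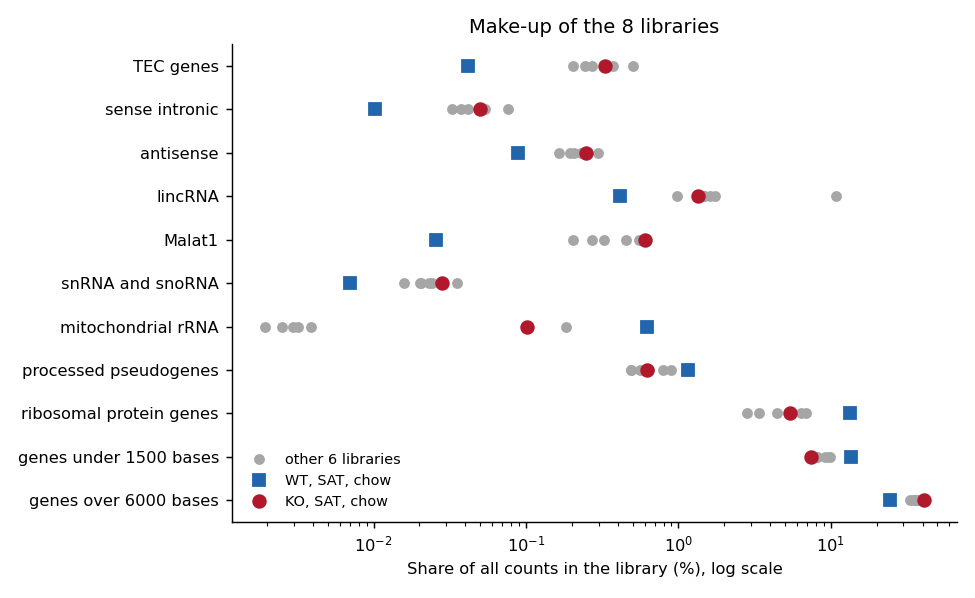
Share of all counts of a library, in percent on a log scale (x axis), taken by 11 groups of genes (y axis), for the SAT chow WT and KO libraries and the other 6. The WT library lies outside the other 6 in all 11 groups, and for KO the share of genes over 6000 bases is 41.2% against at most 38.3%.

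The shares of several noncoding classes of genes differed between the libraries as well. TEC genes, a class of experimentally observed transcripts without an assigned type, took 0.0414% of counts in WT and 0.332% in KO, with 0.203% to 0.504% in the other 6. Sense intronic genes, which lie in an intron of another gene and on its strand, took 0.0102% and 0.0503%, with 0.0325% to 0.0765% in the others. Antisense genes took 0.0892% and 0.248%, and long intergenic noncoding RNAs (lincRNA) 0.411% and 1.34%. In each of these classes the WT library was below, and the KO library inside, the range of the other 6. Whether the counting used strand is not given in the sources used here, so counts of antisense genes cannot be told apart from those of their partners.

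Most TEC and sense intronic genes lie wholly inside an intron of a protein-coding gene on its own strand, where their counts can include unspliced precursor of that gene. To choose them without the SAT chow libraries, a mean of at least 10 counts over the other 6 was required, which gave 579 such units. Together they had 4294 counts in WT and 38773 in KO, a log2 ratio of 3.18. Of the 579, 440 (76.0%) were called higher in KO and 1 lower, and 296 had no count in WT against 3 in KO. Their median log2 ratio was 2.98 with units at 0 set to 3 counts. Of 575 units whose host gene was tested, 518 (90.1%) had a higher log2 ratio than their host, and the hosts' own median was 0.64. Among units chosen instead by their mean in the pair, 442 in number, the median was 4.40, or 3.37 with zeros at 3 counts. Units chosen by their mean within each of the other pairs had medians of −0.57 in SAT on HFD (548 units), −0.40 in VAT (545) and 0.07 in muscle (542).

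Some pairs of host and unit show the difference. *Satb1*, a chromatin organizer of lymphocytes, had 5170 counts in WT and 13750 in KO, and *E430014B02Rik* in its intron (chr17:51745529-51748684, GRCm38) had 4 and 615, a log2 ratio of 7.10 (5.90 to 9.15) against 1.41 for the host. *Nfkb1*, a subunit of NF-κB, differed little, with 5552 and 7647 counts. Yet *Gm43430* in its intron (chr3:135650670-135654566) had 0 and 509, 170.0-fold higher with the 0 set to 3 counts. In the other 6 libraries *Gm43430* had 89 to 662 counts. *Gnai2*, a G protein subunit, was lower in KO, with 15747 and 8403 counts, and *Gm19721* in its intron was higher, with 15 and 204. Not all units differed as strongly. *A130071D04Rik* in *Ptprc*, the gene of the leukocyte surface protein CD45, had 203 and 310 counts, a log2 ratio of 0.61 (0.35 to 0.88) against 0.25 for its host, and *Gm37691* in *Lamb3* had 168 and 269, below its host.

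**Figure D3:**
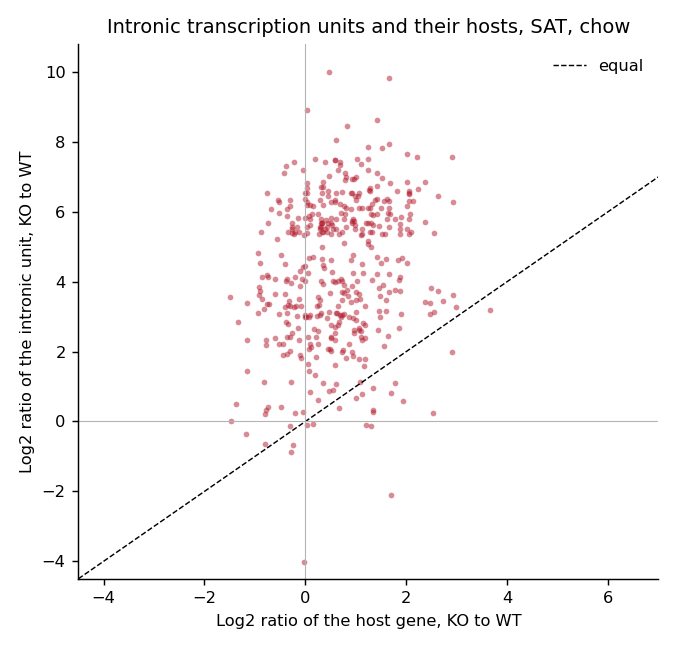
Log2 ratio of KO to WT of 437 TEC and sense intronic units chosen by their mean in the pair (y axis) against that of the gene whose intron holds each of them (x axis), for SAT on chow. Each point is 1 unit and the dashed line marks equal ratios; 417 points (95.4%) lie above it. Units at 0 counts in WT are drawn at ratios that depend on the 0.5 counts added.

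Among 16 RNAs listed as retained in the nucleus, 14 had enough counts to be compared, 8 were called higher in KO and none lower. Their median log2 ratio was 2.18 (interval of the median over the genes 0.23 to 4.65), and 1.32 against protein-coding genes of like length. *Malat1*, an RNA of nuclear speckles, had 4827 counts in WT and 96834 in KO, or 299 and 6005 CPM. It took 0.0256% of all counts in WT, 0.602% in KO and 0.204% to 0.577% in the other 6, so that the WT library lay below them and the KO library slightly above. *Xist*, which coats the inactive X chromosome, had 3196 and 26166 counts, a log2 ratio of 3.04 (2.98 to 3.09). *Neat1*, the scaffold of paraspeckles, had 1210 and 6197 counts, and the imprinted *Meg3* and *Rian* 4 and 333 and 11 and 288. *Kcnq1ot1*, an imprinted RNA that silences its neighbours in cis, had 50 and 506. *Miat* had 1 and 141 counts, a log2 ratio of 6.56 with a counting interval from 4.64 to 12.46. Other members differed less: *Ftx* was at 0.03, *Pvt1* at 0.27, *Jpx* at 0.45 and *Firre* at 0.73, and none of these was called. *Gm26917* was at −0.11 and turned to 0.12 with library totals in place of TMM. *Tsix* had no count in either library.

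Small RNA genes were also chosen by their mean over the other 6 libraries, a choice by which 19.6% of all genes were called higher and 10.8% lower. Of 17 small nuclear RNAs, components of the spliceosome, 12 were called higher and none lower, with 49 counts in WT and 495 in KO. They had 0 counts in WT for 11 genes and in KO for 1. Of 43 small nucleolar RNAs, which guide the modification of ribosomal RNA, 21 were called higher and 1 lower, and the median was 1.74 with zeros at 3 counts. These genes are shorter than the fragments most libraries keep, and their counts can come from introns of their host genes. Of 33 genes of splicing factors known to keep introns in nuclear transcripts, 10 were called higher and none lower, with a median of 0.76, or 0.41 against genes of like length. The highest was *Nktr*, a cyclophilin-domain protein linked to splicing, with 1087 and 4833 counts, and the lowest *Ddx39b*, an RNA helicase of mRNA export, at −0.51. In contrast, 22 host genes of small nucleolar RNAs and cytoplasmic long noncoding RNAs had a median of −0.06. Among these 22, 2 were called higher and 1 lower, against 19.1% and 11.5% of all genes tested in the pair. *Gas5*, the most abundant of them, had 4163 and 3728 counts.

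Counts of 0 were also uneven. KO held 3510 genes at 60 to 200 counts, and 101 of them (2.88%) were at 0 in WT, whereas WT held 2737 such genes and 1 was at 0 in KO. Among TEC, sense intronic, antisense and lincRNA genes the share was 15.1% (62 of 410), and among protein-coding genes 0.723% (20 of 2766). A count of 0 in the WT library was therefore more frequent for these noncoding classes than for coding genes.

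Short genes of the translation and respiration machinery were lower in KO, and the medians of the nuclear lists were closer to 0 but still negative after the length trend was taken away. Of 80 cytosolic ribosomal protein genes, 74 were called lower and 1 higher, with a median of −1.53. Subtracting the median of protein-coding genes of like length left −0.76, with 76 of the 80 below 0. *Rpsa*, the member with most counts, had 110141 counts in WT and 36060 in KO, and *Rps27a* was lowest, with 21673 and 3383. Their summed share of the library was 13.3% for WT and 5.39% for KO, against 2.83% to 6.85% elsewhere. For 77 of the 80 the WT level was above all other 6, and for 1 the KO level was below them. Medians in the other pairs were −0.19 in SAT on HFD, 0.25 in VAT and −0.42 in muscle. The 1 gene called higher, *Rps10*, had 75 and 228 counts. Ribosomal protein genes have many processed pseudogenes that could share reads with them, so single values are uncertain.

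Mitochondrial genes had like values. Of 77 mitochondrial ribosomal proteins, 52 were called lower and none higher, with a median of −1.40, or −0.69 against genes of like length. Of 76 nuclear genes for subunits of oxidative phosphorylation (OXPHOS), 61 were called lower and none higher, with a median of −1.33, or −0.58 against genes of like length (−0.70 to −0.36). *Atp5b*, the catalytic beta subunit of ATP synthase, had 18561 and 8060 counts. The WT level of 72 of these 76 genes lay above all other 6 libraries, and the KO level of 15 below all of them. Of 13 mitochondrially encoded proteins 4 were called lower, and their median of −0.95 turned to 0.12 (−0.01 to 0.41) against protein-coding genes of like length. *mt-Co1*, a subunit of cytochrome c oxidase, had 306186 and 156738 counts, and *mt-Nd6*, the one coded on the other strand, was higher at 0.44 with 5714 and 7741. Of 21 genes of the TCA cycle, 11 were called lower and none higher (median −1.10, or −0.81 against like length). Of 37 proteasome subunits, 23 were called lower and none higher (median −1.18, or −0.63).

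**Figure D4:**
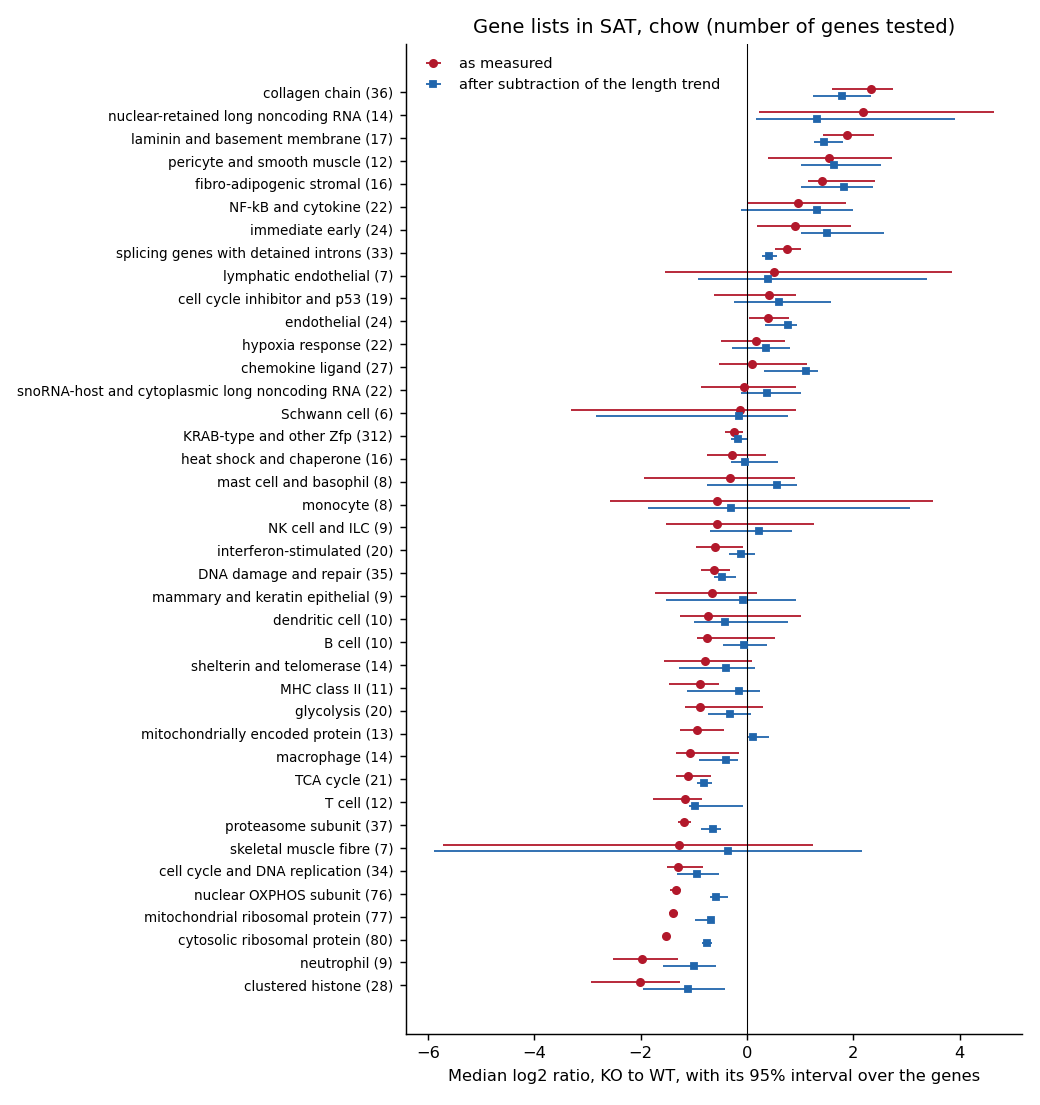
Median log2 ratio of KO to WT (x axis) of each gene list with at least 6 genes tested (y axis, number tested in parentheses), as measured and after subtraction of the median of protein-coding genes of like length; bars are 95% intervals of the median over the genes, which are not replicates. Subtraction moves cytosolic ribosomal proteins from −1.53 to −0.76 and collagen chains from 2.33 to 1.78, both toward 0.

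Replication genes were lower in KO as a group. Of 34 genes of the cell cycle and DNA replication, 19 were called lower and none higher, with a median of −1.29, or −0.94 against genes of like length. *Kif20a*, a kinesin of cell division, had 323 and 56 counts, and *Pcna*, the sliding clamp of DNA polymerase, had 5652 and 3628, a log2 ratio of −0.64. Of 28 clustered histone genes with enough counts, of 67 listed, 14 were called lower and none higher, with a median of −2.02, or −1.11 (−1.95 to −0.41) against genes of like length. Of the 28, 4 had 0 counts in KO. The 28 were chosen by their mean in this same pair. These 4, and others with fewer than 10 counts in KO, entered through WT alone. Examples are *Hist4h4*, with 46 counts in WT and 7 in KO, and *Hist1h3f*, with 38 and 1. Most of the 14 genes called lower entered in this way. The calls and the median can depend on that choice. The mRNAs of clustered histone genes mostly lack a poly(A) tail, which an mRNA kit selects or primes on. DNA repair genes were mixed, with 2 of 35 higher and 5 lower, against 19.1% and 11.5% of all genes. *Atm*, a kinase of the DNA damage response, was highest, with 719 and 2206 counts in a gene of 10338 bases, and *Ogg1*, a glycosylase that removes oxidized guanine, lowest, with 227 and 61. Of 14 genes of shelterin and telomerase, *Tert* among them, 4 were called lower and none higher, and the median of −0.80 had an interval that included 0. Genes of cell cycle inhibitors and p53 targets had 4 of 19 called higher and none lower, against 19.1% and 11.5% of all genes. Their median of 0.42 had an interval that also included 0. Among them *Cdkn1b*, the inhibitor p27, had 2397 and 5279 counts.

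Glycolysis and interferon-stimulated genes had medians of −0.89 and −0.60, and hypoxia response genes had a median of 0.17. Of 20 glycolysis genes 2 were called higher and 6 lower. *Hk2*, which phosphorylates glucose, had 243 and 1112 counts, and *Pkm*, which makes pyruvate, had 14295 and 7209. Of 22 hypoxia response genes 4 were called higher and 2 lower, against 19.1% and 11.5% of all genes. *Vegfa*, the main growth factor of EC, had 121 and 1148 counts, a log2 ratio of 3.24 (2.98 to 3.53), and *Bnip3*, a mitochondrial autophagy receptor, had 226 and 85. Of 20 interferon-stimulated genes none was called higher and 3 lower, and of 312 zinc finger genes 25 were higher and 26 lower. Heat shock genes had a median of −0.28, with 2 of 16 higher and 2 lower. For this list and the glycolysis, interferon-stimulated and zinc finger lists, too, the shares of all genes were 19.1% higher and 11.5% lower. *Bag3*, a co-chaperone, had 238 and 1098 counts and *Hspa8* had 72744 and 33314.

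Early response genes were higher in part. Of 24 immediate early genes, whose transcription starts within minutes of a stimulus, 12 were called higher and none lower, with a median of 0.91, or 1.51 (1.01 to 2.57) against genes of like length. *Nr4a3*, an orphan nuclear receptor, had 346 counts in WT and 31621 in KO, a log2 ratio of 6.51 (6.36 to 6.67) and the highest in this list. The related *Nr4a2* had 437 and 6733, and *Nr4a1* 4790 and 30340. *Fosl2* had 900 and 29697 counts and *Fosb* 3437 and 26880, both partners in the AP-1 transcription factor. *Fos* itself had 14668 and 14763, a log2 ratio of 0.01, and *Jun* had 8677 and 9338. Members with near equal counts thus stood beside members that differed strongly. In the other pairs the medians were 0.05, 0.11 and −0.16, and none of the 24 genes was called. The WT level was below all other 6 libraries for 12 of the 24 genes and the KO level above them for 7.

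NF-κB genes and cytokines were also higher in part. Of 22, 10 were called higher and none lower, with a median of 0.97 whose interval reached 0 (−0.00 to 1.86). *Tnfaip3*, which feeds back to inhibit NF-κB, had 3710 and 29633 counts, *Rel*, a subunit, 1217 and 17087, and *Il6*, a cytokine, 9 and 353. *Tnf* had 1489 and 837 and *Rela* 3519 and 2248. Of 27 chemokine genes 6 were called higher and 2 lower, against 19.1% and 11.5% of all genes. *Cxcl1*, an attractant of neutrophils, had 54 and 677 counts, and *Ccl5*, an attractant of T cells, had 5929 and 2032. *Tnfaip6*, a hyaluronan-binding protein of inflamed tissue, had 14 and 1816, and *H60b*, a ligand of an activating receptor of natural killer cells, had 3 and 536, a log2 ratio of 7.26 (5.93 to 9.77).

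The sorted cells carried markers of EC and of many other cells in both libraries. All 24 EC markers were detected, and they summed to 1251 CPM in WT and 1642 in KO, with 798 to 6338 in the other libraries. Of the 24, 4 (16.7%) were called higher in KO, against 19.1% of all genes, and none lower, with a median of 0.40, or 0.76 against genes of like length. *Kdr*, the main VEGF receptor, and *Ptprb*, an EC phosphatase, were higher, the latter with 402 and 1589 counts. *Pecam1*, which encodes CD31, had 4370 and 3985 counts. It was at −0.13, and at 0.10 with library totals. The B cell genes summed to 5796 CPM in WT and 3660 in KO, above all other libraries (753 to 3065). The T cell genes summed to 4826 and 2424, with 407 to 2814 elsewhere. In a bulk library, fewer cells of a type and less RNA per cell cannot be told apart. The adipocyte genes *Plin1*, *Cidec*, *Cidea*, *Adrb3* and *Lep* had 0 counts in WT, and *Adipoq*, *Retn*, *Adrb3* and *Lep* in KO, while the whole list of 14 summed to 276 and 314 CPM. Its member with most counts, *Fabp4*, which other cells also express, had 1723 and 2606.

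**Figure D5:**
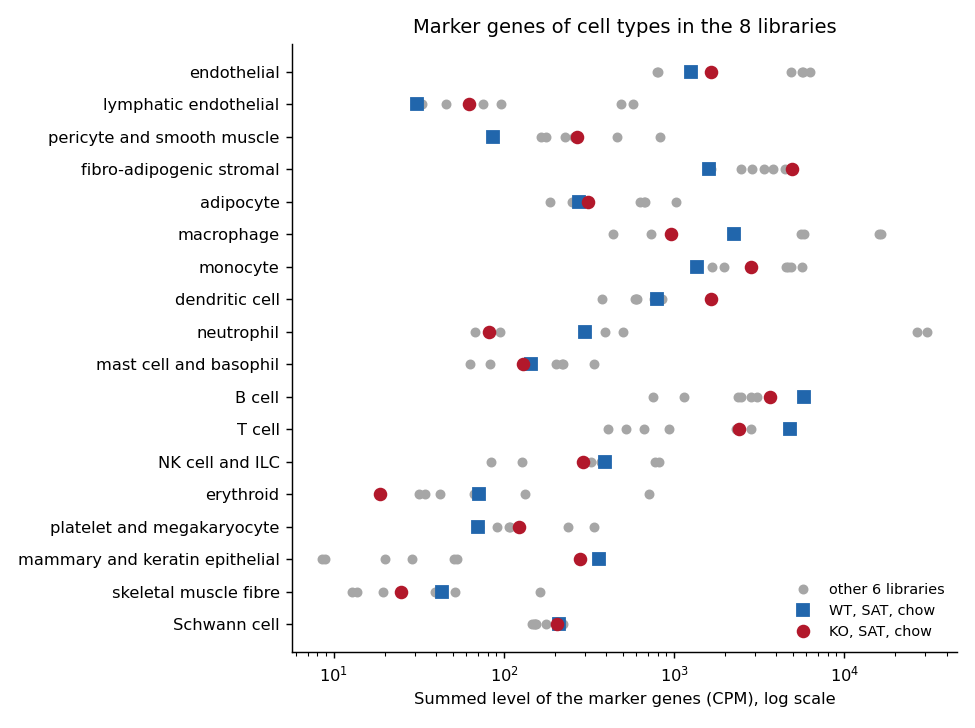
Summed level of marker genes of 18 cell types (y axis), in CPM on a log scale (x axis), for the SAT chow WT and KO libraries and the other 6. The B cell and epithelial sums of both SAT chow libraries lie above the other 6, and the stromal sum is 1604 CPM in WT and 4963 in KO.

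Lymphocyte genes shared the length trend to different degrees. Of 10 B cell genes 1 was called lower, against 11.5% of all genes, and their median of −0.75 was −0.07 against genes of like length. *Ighm*, the heavy chain of IgM, had 40861 and 22626 counts, and *Pax5*, the transcription factor of the B lineage and a gene of 8853 bases, had 3407 and 5192. Of 12 T cell genes 7 were called lower and none higher, with a median of −1.16, or −0.97 (−1.09 to −0.07) against genes of like length. *Cd8b1*, a chain of the CD8 coreceptor, had 9262 and 2230 counts, *Lck*, a kinase of the T cell receptor, 12747 and 4814, and *Il7r*, the receptor of interleukin 7, 5076 and 8407. For 10 of the 12 the WT level was above all other 6 libraries. Within this lineage *Il7r* (0.73) and *Bcl11b* (0.20) thus stood beside *Cd3g* (−1.84) and *Cd3d* (−1.76).

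Myeloid genes also differed among themselves. Of 14 macrophage genes 6 were called lower and none higher, and the sum was 2237 CPM in WT and 962 in KO. *Lyz2*, lysozyme, gave 20551 of 36142 counts in WT and 7023 of 15505 in KO, whereas *Mertk*, a receptor for dying cells, had 94 and 212. Of 9 neutrophil genes tested 7 were lower and none higher. *S100a9* had 1345 and 322 counts and *Camp*, an antimicrobial peptide, 141 and 9. The dendritic cell sum was 794 and 1648 CPM, above the others in KO, but *Ccr7*, a homing receptor that T and B cells also express, gave 3662 of 12827 counts in WT and 20657 of 26582 in KO. Without respect to abundance, the median over the 10 genes was −0.73. The monocyte sum was 1363 and 2814 CPM. *Nr4a1*, which is also an immediate early gene, gave 4790 of 22021 counts in WT and 30340 of 45372 in KO, and the genes of this list had a median of −0.56. *Chil3*, a chitinase-like protein of myeloid cells, had 820 and 137 counts, and *Vcan*, a long proteoglycan gene, 52 and 593.

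Stromal and matrix genes were higher in KO. Of 16 genes of fibro-adipogenic stromal cells, the progenitors of adipocytes and fibroblasts, 13 were called higher and none lower, and the sum was 1604 CPM in WT and 4963 in KO, with 1647 to 4500 in the other 6. The WT library thus lay just below that range and the KO library just above it. *Pdgfra*, the receptor that marks these cells, had 238 and 1553 counts, *Fbn1*, fibrillin, 332 and 3443, and *Dcn*, decorin, 3363 and 10351. Of the 3 that were not called, *Pi16* was at 0.76, *Ly6a* had 2448 and 1805 counts and *Dpp4* 2609 and 2139. Other cells also express the last 2. Of 36 collagen chains 25 were called higher and none lower, with a median of 2.33, or 1.78 against genes of like length. *Col3a1* had 3021 and 14525 counts, *Col1a1* 1609 and 10967 and *Col6a3* 242 and 3849. Of 17 laminin and basement membrane genes 13 were higher and none lower (median 1.88, or 1.44 against like length), and *Hspg2*, perlecan, had 729 and 5432 counts. The collagen medians in the other pairs were 0.11 in SAT on HFD, 0.66 in VAT and 0.75 in muscle. Of 12 mural genes, of pericytes and smooth muscle, 7 were higher and 1 lower, and their sum was 85.7 and 268 CPM. *Cspg4*, a pericyte proteoglycan, had 0 and 86 counts, 28.7-fold higher with the 0 set to 3 counts. *Kcnj8*, a channel of pericytes, had 147 and 42.

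Epithelial genes marked both SAT chow libraries. The 12 genes of mammary and keratinized epithelium summed to 361 CPM in WT and 281 in KO, with 8.55 to 53.2 in the other 6. The keratins *Krt8* and *Krt19* had 1044 and 1350 and 1280 and 1295 counts, and *Krt18* was at −0.75. *Elf5*, a transcription factor of the mammary alveolus, had 109 and 9. Lymphatic EC genes summed to 30.9 and 62.0 CPM. *Prox1*, which specifies these cells, had 9 and 136 counts, and *Ccl21a*, their chemokine, had 86 and 29. *Lyve1* had the most counts of this list, 116 and 354. *Flt4*, *Mmrn1* and *Reln* were at 0.50, 0.47 and 0.45, and none of these was called. Mast cell genes summed to 144 and 129 CPM. Schwann cell genes summed to 211 and 205 CPM, but *Mbp*, a myelin gene, gave 3001 and 3012 of these counts, and *Sox10*, the transcription factor of this lineage, was called lower with 114 and 11. Platelet genes summed to 70.6 and 122 CPM, in which *Itgb3*, an integrin that other cells also express, had 773 and 1586 counts and *Pf4*, a platelet chemokine, 265 and 158. Genes of natural killer and other innate lymphoid cells summed to 390 and 291 CPM. Within this list *Areg* had 94 and 482 counts and *Prf1* 1151 and 523. Erythroid genes summed to 70.9 and 18.6 CPM and muscle fibre genes to 43.2 and 24.7. The part of cell mixture in the differences described above was not tested.

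The farthest single genes were of several kinds. By the counting interval, the pseudogene *H2-Ea-ps* led, with 0 counts in WT and 5496 in KO, 1836-fold higher with the 0 set to 3 counts. VAT held 7 in WT and 14205 in KO, muscle 3 and 2291, and SAT on HFD none in either. *Iqcn* had 0 and 793 counts, 265-fold higher with the 0 set to 3 counts, and 40 to 1549 in the other 6 libraries. *Slc24a1*, an ion exchanger gene, had 0 and 307. *5430419D17Rik* had 0 and 437 and no count in the other 6 libraries. Lower in KO by the same rule were mostly variable segments of immunoglobulins, each used by a part of B cells. *Igkv14-130* had 309 and 4 counts and *Igkv4-57-1* 566 and 20. Of 150 heavy and light chain variable segments, 49 were called lower and 6 higher, with a median of −0.94. In VAT their median was 2.73, in SAT on HFD 0.16 and in muscle −0.65. Chosen instead by a mean of at least 10 counts over the other 6 libraries, 131 segments had 39 called lower and 6 higher. Of all genes chosen so, 10.8% were called lower and 19.6% higher. The median of the 131 was −0.91 with zeros at 3 counts. Of the protein-coding genes farthest below the length trend, *Tlr11*, a receptor for microbial proteins, had 258 and 28 counts, *Cd209e* 233 and 23, and *Slc40a1*, the iron exporter, 188 and 41.

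Whether the KO effect of SAT on chow differed from that in the other 3 pairs was tested with edgeR's quasi-likelihood test over all 8 libraries, in which the spread between those 3 pairs stands for error. Of 16971 genes, 189 (1.11%) had a higher effect and 7 (0.0412%) a lower one at an adjusted p under 0.05, and 3636 had an unadjusted p under 0.05. The 3 reference pairs differ in tissue and diet, and the count moved between 116 and 2608 when 1 of them was left out, so that these are not tests against replicates. Over a reference of 16109 tested genes, the median length was 3862 bases and 26.7% were over 6000 bases. The genes with a higher effect had a median length of 7350 bases, and 61.4% were over 6000 bases. TEC and sense intronic genes made up 10.1% of them, against 3.81% of the reference. *Slc5a3*, a myo-inositol transporter, had 88 and 2141 counts in SAT on chow, and its effect was 4.90 above the others (adjusted p = 0.0242, edgeR). *Adamts1*, a matrix protease, *Jmy*, a regulator of actin, and *Nr4a2* followed with the same adjusted p. Of the immediate early list 7 of 24 genes passed (*Atf3*, *Egr3*, *Fosb*, *Fosl2*, *Nr4a1*, *Nr4a2* and *Nr4a3*), and of the nuclear-retained list *Malat1* (adjusted p = 0.0255, edgeR) and *Xist* (0.0276). *Camp*, *Sash3*, *Limd2*, *Rps6ka1*, *Rpl30* and *Rps27a* were among the 7 with a lower effect. The last 2 encode ribosomal proteins.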

How the data were processed

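RNAseq was made from mG+ cells of SAT, VAT and muscle, with RNeasy columns and a SMARTER mRNA kit per the labels, whereas the article's methods name Trizol. The deposited values are raw counts per Ensembl gene, whole numbers without normalization. The submitters' processing notes name HISAT2 2.0.5 and GRCm38 (mm10). The counting program and its use of strand are not given in the sources used here. All value columns were matched to samples by tissue, diet and genotype. Gene lengths are those of the table, which equal the merged exons of GENCODE M21 for 98.0% of genes. Coding and UTR lengths and intron placement came from GENCODE M21.

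The members and lists were chosen with earlier results of these data known. Libraries were scaled by TMM (edgeR 4.0.16) with factors of 0.857 (WT) and 1.00 (KO). Genes under a mean of 10 counts in the pair were left out. Counting intervals are exact binomial (Clopper-Pearson, 95%) and cover counting error only, since reads without molecular identifiers are not independent molecules. The floor was 3 counts. Intervals around list medians are order-statistic intervals (95%) over the genes. The length trend was the median in 100 bins of length, over all genes, and, chosen after the values were seen, over protein-coding genes, which is the value printed beside lists. The choice of intronic units, small RNAs and receptor segments by the other 6 libraries was also made after the values were seen. The pairs were compared with edgeR's quasi-likelihood test (pair as block, Benjamini-Hochberg adjustment at 0.05), with 2 residual degrees of freedom. DESeq2 1.42.0 served as an alternative. In simulated data with a dispersion of 0.1 over 16971 genes, this test recovered 2% of 4-fold and 83.5% of 16-fold differences, and none at a dispersion of 0.4. Counting intervals were tested on simulated data over 16908 genes and held the planted ratio for 95.8%. These simulated counts had counting error alone, so this cannot test how the intervals cover any other spread between real libraries.

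Genes named are the 8 farthest from 0 each way by the interval, the 5 protein-coding genes each way farthest from the length trend (mean of at least 100 counts), the most abundant, highest and lowest member of each list, *Tert*, the nuclear-retained RNAs, and up to 5 genes each way by the test across pairs. Others named as examples were picked after their values were seen.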

Additional observations from a re-analysis of the deposited data

Results flagged for a closer look

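The KO effect of SAT on chow differed from the mean effect of the other 3 pairs, by edgeR's quasi-likelihood test, for 196 genes. Those named above are given here by the difference of the 2 effects on the log2 scale. It was 6.65 for *Nr4a3*, 3.96 for *Nr4a2*, 2.51 for *Nr4a1*, all of the immediate early list. It was 4.90 for *Slc5a3*, 3.85 for *Jmy*, 4.196 for *Adamts1*, 4.63 for *Cxcl1*, 2.94 for *Vegfa*, 2.47 for *Bag3*, 7.18 for *Tnfaip6* and 7.69 for *H60b*. For matrix genes it was 3.27 (*Fbn1*) and 2.72 (*Hspg2*). For genes with nuclear transcripts it was 4.45 (*Malat1*), 3.06 (*Xist*), 2.06 (*Nktr*) and 12.63 (*Gm43430*), and for *Iqcn* it was 12.004. The last 2 had 0 counts in the SAT chow WT library, so that these fitted values depend on the prior count. A lower effect was found for *Camp* (−4.29), *Rps27a* (−2.83), *Rpl30* (−2.28), *Sash3* (−2.00), *Limd2* (−1.89) and *Rps6ka1* (−1.82).

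Opposite directions between pairs were seen in some summaries, and these differences were not tested. The longest of 10 groups of protein-coding genes lay above the shortest in SAT on chow and at −0.37 from it in VAT. Genes of the cell cycle and DNA replication had a median of −1.29 in SAT on chow, 0.25 in VAT and 0.38 in muscle. Cytosolic ribosomal protein genes were at −1.53 in SAT on chow and 0.25 in VAT, and nuclear OXPHOS genes at −1.33 and 0.25. Groups of 1 library allow no search for a library far from its replicates.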

How the results depend on the processing

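No paired analysis was possible because each genotype has 1 library in this tissue and diet. Library totals in place of TMM raised all log2 ratios by 0.23.

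Genes called higher were 1821 at a mean of at least 50 counts. Genes called lower were 1133 with library totals, 1265 with upper quartile scaling, and 1157 and 756 after removal of the length trend of all and of protein-coding genes. The distance between the longest and the shortest of 10 length groups (1.22 over all genes) was 2.02 at a mean of at least 50 counts, 1.97 over protein-coding genes, 0.86 and 1.90 (all and protein-coding genes) when chosen by the other 6 libraries, and reversed to −0.89 when 1 count sufficed (the cause was not tested).

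With DESeq2 size factors, library totals, upper quartile, TMM over protein-coding genes and TMM without nuclear, small and mitochondrial RNA, in that order, the ratio of endothelial sums was 0.50, 0.62, 0.58, 0.46 and 0.43, that of stromal sums 1.74, 1.86, 1.82, 1.70 and 1.67 (1.41 as the median of genes), and the number of genes that differ between pairs 483, 604, 452, 379 and 374. That number was 901 with 1 count in total and 1879 by DESeq2's Wald test, and 116 to 2608 when 1 pair was left out (2608 without SAT on HFD, 116 without VAT). Ribosomal protein genes were at −1.42, −1.30, −1.34 and −1.46 with the first 4 scalings, at −0.998 and −0.76 without the length trend and at −1.44 as a mean, and nuclear OXPHOS genes at −1.23, −1.11 and −1.15 with the first 3, and at −0.89 and −0.58.

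Reversed were the monocyte (−0.56) and dendritic cell (−0.73) lists as medians, mast cell sums with library totals (0.064) and upper quartile (0.025), and mitochondrially encoded genes without the coding length trend (0.12). With the same 2 scalings *Pecam1* turned to 0.095 and 0.056, *Gm26917* to 0.12 and 0.076, *Gas5* to 0.069 and 0.030, *H2-Ob* to 0.068 and 0.029, and, with totals, *Psmd11* to 0.010. Of 1592 values computed under alternatives, 1195 stayed within their interval or within 1.5 times the count, 382 moved and 15 reversed.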

Other observations

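Segments of the T cell receptor differed by class. Chosen by a mean of at least 10 counts over the other 6 libraries, 20 of 26 joining segments were called higher in KO and none lower, against 19.6% and 10.8% of all genes chosen so. They had 249 counts in WT and 1575 in KO, and 11 of them had 0 in WT. Of 32 variable segments none was called higher and 9 lower, with a median of −0.98. Of 29 microRNA genes 13 were called higher and none lower, 9 being at 0 in WT, with a median of 1.85 when zeros were set to 3 counts. Their summed counts went the other way, with 184826 in WT and 94704 in KO. Genes of MHC class II, which presents antigens to T helper cells, had 4 of 11 called lower and none higher, with a median of −0.88, or −0.14 (−1.14 to 0.25) against protein-coding genes of like length. *Cd74*, the invariant chain, had 136200 and 73876 counts.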
